A study of Mus musculus with 20 samples.

Results

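Blood-brain barrier and pericyte genes were examined in the striatum of mice that over-express human α-synuclein and of their wild-type littermates, after a graft of neural stem cells (NSCs) or an injection of vehicle. The set holds 10 genes of 22180 measured, 7 of them markers of brain endothelial cells (Cldn5, Ocln, Pecam1, Cdh5, Slc2a1, Abcb1a and Mfsd2a) and 3 of pericytes (Pdgfrb, Rgs5 and Vtn). A transcript cluster, the probe set that summarizes one gene on the array, was taken for a member when its annotation named that gene symbol alone, and of several such clusters the one with the highest interquartile range over the 20 arrays was kept. The choice used no comparison between groups, but a range over all arrays takes in differences between groups as well. Rgs5 and Slc2a1 had 2 clusters each and the other members 1.

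RNA from the dorsal striatum of 20 mice, 5 in each of 4 groups, was hybridised to Affymetrix Mouse Gene 2.0 ST arrays, 1 mouse per array. ASO-NSC and ASO-Veh mice carried the PDGF-β-ASO line D transgene, in which a PDGF-β promoter drives human wild-type α-synuclein, and WT-NSC and WT-Veh mice did not. All were on the C57B6/J background and labelled 12 months old. Into the striatum of NSC mice went GFP-labelled neural stem cells at passage 15, grown from the hippocampus and cortex of newborn mice of the same strain, and into that of Veh mice saline. Behavioural tests began 1 month later and the tissue was taken after them, so that any RNA of the grafted cells was measured together with that of the host.

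Brain capillaries are lined by endothelial cells whose tight junctions close the gaps between cells and whose membranes carry nutrient transporters in and pump drugs out. Pericytes sit on these capillaries within a shared basement membrane, and the feet of astrocytes cover both. Loss of pericytes is known to open the barrier, and Wnt ligands from neural cells are known to build and maintain it.

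All values are log2 intensities, so a difference of 1 is a doubling, and levels were compared between mice for the same probe set only. Array medians lay between 6.168 and 6.281 and RNA integrity numbers between 9.2 and 9.7. Groups were compared with limma on 19 arrays with the labelled sex in the design, without ASO-NSC mouse 59, the array that the study left out of its network as an outlier. A gene was called at a Benjamini-Hochberg adjusted p under 0.05 over all 22180 genes. Litter nearly coincided with treatment. NSC mice came from litters 3, 4 and 6 and Veh mice from litters 1, 3 and 5, and litter 3 alone held both treatments, with 1 NSC and 2 Veh arrays. The sex genes of 5 arrays (ASO-Veh mice 45 and 47, WT-NSC mouse 54, WT-Veh mice 61 and 62) differed from the labelled sex. All 10 members had a median above 5 over the 20 arrays. The lowest value of any member, 5.87 for Rgs5, lay above the values of Y-linked Kdm5d, Uty and Eif2s3y in arrays of the female pattern, which lay between 3.34 and 4.48.

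The first question was whether the graft changed the barrier and pericyte genes. No member passed the threshold in any of 8 comparisons by limma. The highest differences after the graft, over both genotypes, were those of Vtn and Slc2a1, by 0.22 and 0.18 (1.17-fold and 1.13-fold), and both had an adjusted p near 0.1. Mfsd2a, Pdgfrb and Rgs5 differed by -0.00, -0.02 and 0.02. In ASO-NSC against ASO-Veh mice, 0 of 10 members were called, where 0.00902% of all genes were called, and 1 member (Slc2a1) had an unadjusted p under 0.05, against 8.88% of all genes. In WT-NSC against WT-Veh mice, 0 members were called (0.433% of all genes) and 1 (Vtn) had an unadjusted p under 0.05 (13.5% of all genes). Over both genotypes, 0 members were called (1.15% of all genes) and 3 (Slc2a1, Vtn and Ocln) had an unadjusted p under 0.05 (18.7% of all genes). The difference was above 0 for 7 of 10 members in ASO mice, for 10 of 10 in WT mice and for 8 of 10 over both, where 51.2%, 50.4% and 50% of all genes were above 0. These counts include differences smaller than their standard error, in WT mice those of Cdh5, Abcb1a, Mfsd2a, Pdgfrb and Rgs5. The median difference of the members was 0.06 in ASO mice and 0.10 in WT mice, and that of all genes was 0.00 in both. In tissue RNA, a change in the number of cells of a type and a change in RNA per cell cannot be told apart.

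**Figure D1:**
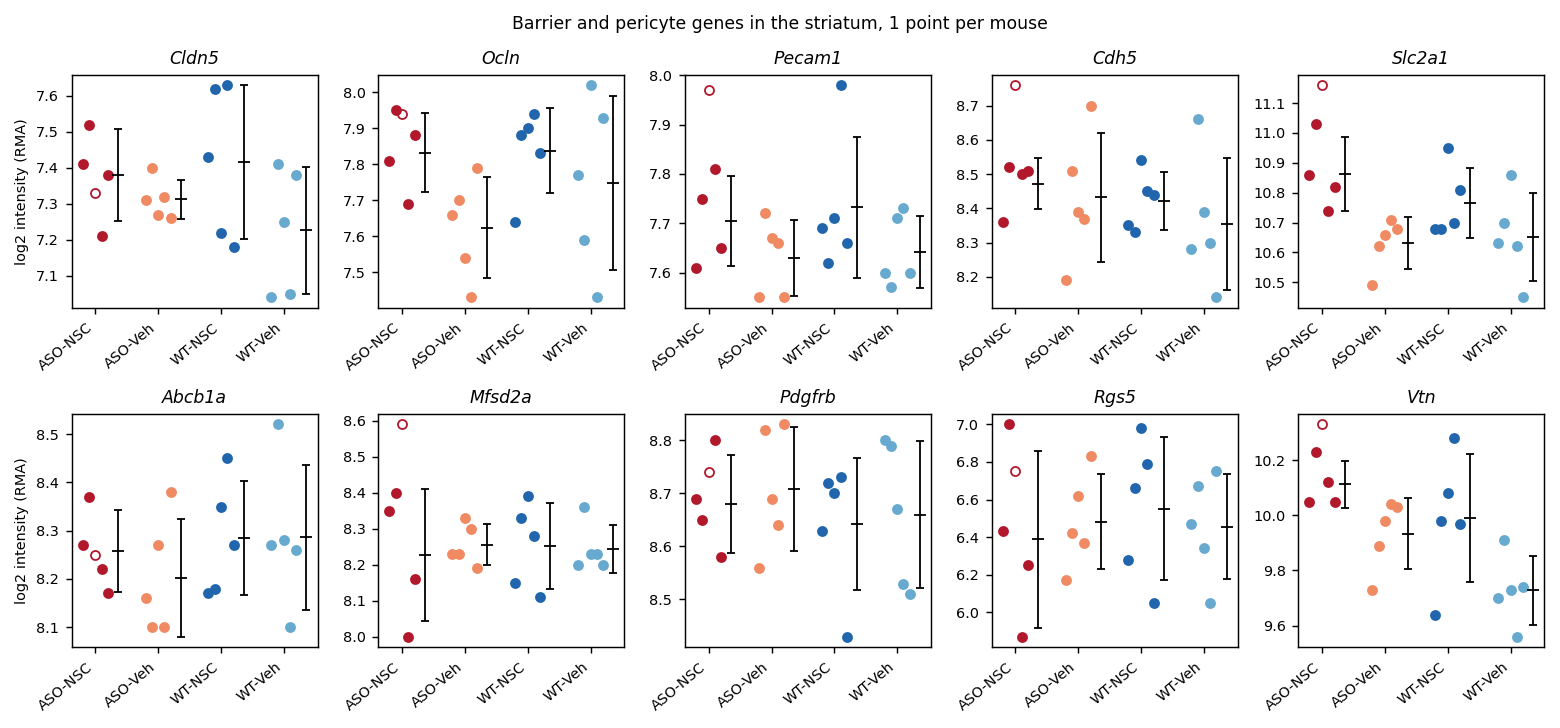
Log2 intensity (vertical axes, each with its own range) of the 10 members in every mouse of the 4 groups (horizontal axes). Bars are the mean ± SD of the mice in the fit and the open circle is ASO-NSC mouse 59, which the fit left out. For Slc2a1 and Vtn all ASO-NSC mice lie above all ASO-Veh mice, and in the other panels NSC and Veh mice of each genotype overlap.

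The junction genes come first. Values per mouse are given in the order of mice 56, 57, 59, 73 and 75 for ASO-NSC, 42, 45, 46, 47 and 68 for ASO-Veh, 53, 54, 58, 70 and 74 for WT-NSC, and 61, 62, 64, 66 and 67 for WT-Veh. Means are of the mice in the fit (n = 4 for ASO-NSC, n = 5 for each other group).

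Cldn5 (transcript cluster 17323755) encodes claudin-5, the main sealing strand of the brain endothelial tight junction. It measured 7.41, 7.52, 7.33, 7.21 and 7.38 in ASO-NSC mice, against 7.31, 7.40, 7.27, 7.32 and 7.26 in ASO-Veh mice. It measured 7.43, 7.62, 7.22, 7.63 and 7.18 in WT-NSC mice, against 7.04, 7.41, 7.25, 7.05 and 7.38 in WT-Veh mice. Both pairs of groups overlapped, and the 3 highest values of all 20 mice were those of WT-NSC mice 54 and 70 and ASO-NSC mouse 57. The difference was 0.07 ± 0.10 (SE) in ASO mice and 0.20 ± 0.10 in WT mice, and the value in WT mice had an unadjusted p of 0.0528 and an adjusted p of 0.376 by limma.

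Ocln (17295670) encodes occludin, a membrane protein of the same junctions. Its levels were 7.81, 7.95, 7.94, 7.69 and 7.88 in ASO-NSC mice, against 7.66, 7.70, 7.54, 7.43 and 7.79 in ASO-Veh mice. Mouse 73 with the graft lay below mouse 68 without it, and that pair, with mouse 45, made up the overlap. In WT-NSC mice the levels were 7.64, 7.88, 7.90, 7.94 and 7.83, against 7.77, 7.59, 8.02, 7.43 and 7.93 in WT-Veh mice, which spanned the whole range of the WT-NSC mice. Between NSC and Veh mice Ocln differed by 0.20 ± 0.11 in ASO mice (adjusted p = 0.584), by 0.11 ± 0.10 in WT mice (adjusted p = 0.661) and by 0.16 ± 0.07 over both genotypes, with an unadjusted p of 0.0456 and an adjusted p of 0.257 by limma.

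Pecam1 (17270937) and Cdh5 (17504399) encode CD31 and VE-cadherin, which hold endothelial cells to each other in vessels of every organ. Pecam1 measured 7.61, 7.75, 7.97, 7.81 and 7.65 in ASO-NSC mice, against 7.55, 7.72, 7.67, 7.66 and 7.55 in ASO-Veh mice. It measured 7.69, 7.62, 7.71, 7.98 and 7.66 in WT-NSC mice, against 7.60, 7.57, 7.71, 7.73 and 7.60 in WT-Veh mice. The highest 2 values were those of ASO-NSC mouse 59 and WT-NSC mouse 70, and both pairs of groups overlapped.

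Cdh5 was at 8.36, 8.52, 8.76, 8.50 and 8.51 in ASO-NSC mice, against 8.19, 8.51, 8.39, 8.37 and 8.70 in ASO-Veh mice. In WT-NSC mice it was at 8.35, 8.33, 8.54, 8.45 and 8.44, against 8.28, 8.66, 8.39, 8.30 and 8.14 in WT-Veh mice. The SD of Cdh5 was 0.08 in ASO-NSC mice without mouse 59, the highest of all mice, and 0.15 with it, 0.09 in WT-NSC mice and 0.19 in each Veh group. The difference over both genotypes was 0.08 ± 0.05 for Pecam1 and 0.06 ± 0.07 for Cdh5, with adjusted p of 0.381 and 0.665 by limma.

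Among the transport genes, Slc2a1 (17417844) encodes GLUT1, which carries glucose across the barrier and is made by astrocytes as well. It measured 10.86, 11.03, 11.16, 10.74 and 10.82 in ASO-NSC mice, against 10.49, 10.62, 10.66, 10.71 and 10.68 in ASO-Veh mice. Every ASO-NSC mouse lay above every ASO-Veh mouse, with the nearest pair, mice 73 and 47, apart by less than the SD of either group. Of all genes, 3.01% were higher without overlap in this comparison. In WT-NSC mice it measured 10.68, 10.68, 10.95, 10.70 and 10.81, against 10.63, 10.70, 10.86, 10.62 and 10.45 in WT-Veh mice, and these groups overlapped.

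Slc2a1 differed between ASO-NSC and ASO-Veh mice by 0.22 ± 0.07 (1.16-fold, unadjusted p = 0.00904, adjusted p = 0.463 by limma), and the value for WT mice was 0.14 ± 0.07 (adjusted p = 0.41). Over both genotypes it was 0.18 ± 0.05, with a 95% interval of 0.07 to 0.29 and an adjusted p of 0.0912. It passed the threshold when arrays were first centred on their medians (0.21, adjusted p = 0.0426). Those medians ran from 6.168 to 6.226 in NSC arrays, against 6.201 to 6.281 in Veh arrays, so centring raised the difference of every gene alike. In litter 3, which held both treatments, Slc2a1 was at 10.68 in WT-NSC mouse 53, against 10.66 and 10.71 in ASO-Veh mice 46 and 47. The second Slc2a1 cluster (17429307), dim at 5.78 to 6.24, differed by -0.04 ± 0.08 in ASO mice and by 0.02 ± 0.06 over both genotypes, so that the 2 clusters disagree. Their group-centred values correlated over the 20 mice with r = 0.32 (permutation p = 0.253) and rho = 0.36 (permutation p = 0.165), and with r = 0.17 without the 2 mice farthest from the median. With the clusters averaged, the difference over both genotypes was 0.10 ± 0.05 (adjusted p = 0.261).

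The promoter of Slc2a1 is shown because this gene and Vtn were the members whose ASO groups lay apart. It is the stretch from 250 bases before to 50 after the annotated start, from RefSeq on GRCm38.p6, chr4:119108495-119108794, plus strand, with 2 GC boxes (GGGCGG, here on the other strand, at -45 and -20 from the start) and a TATAAA (at 28 after it) in capitals:
Slc2a1: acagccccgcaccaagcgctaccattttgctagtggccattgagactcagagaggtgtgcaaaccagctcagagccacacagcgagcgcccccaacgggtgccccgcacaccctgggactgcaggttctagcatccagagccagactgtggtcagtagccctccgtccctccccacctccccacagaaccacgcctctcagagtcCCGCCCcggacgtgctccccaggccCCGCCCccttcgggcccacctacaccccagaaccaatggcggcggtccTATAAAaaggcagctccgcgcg
Both motifs are common. GGGCGG was found on either strand in 35.7% of 32851 promoters of this length and TATAAA in 13.6%. A match is a description of the letters and no evidence of a site in use.

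Abcb1a (17434524) encodes P-glycoprotein, which pumps drugs back into the blood. It was at 8.27, 8.37, 8.25, 8.22 and 8.17 in ASO-NSC mice, against 8.16, 8.10, 8.27, 8.10 and 8.38 in ASO-Veh mice. In WT-NSC mice it was at 8.17, 8.18, 8.35, 8.45 and 8.27, against 8.27, 8.52, 8.28, 8.10 and 8.26 in WT-Veh mice. The highest value of Abcb1a was that of a Veh mouse in each genotype, and the difference over both genotypes was 0.03 ± 0.06 (95% interval -0.09 to 0.15).

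Mfsd2a (17429632) encodes the transporter that brings docosahexaenoic acid into the brain as a lysolipid and keeps transcytosis low. It measured 8.35, 8.40, 8.59, 8.0 and 8.16 in ASO-NSC mice, against 8.23, 8.23, 8.33, 8.30 and 8.19 in ASO-Veh mice. It measured 8.33, 8.39 and 8.28 in WT-NSC mice 54, 58 and 70 and 8.15 and 8.11 in mice 53 and 74, against 8.20, 8.36, 8.23, 8.23 and 8.20 in WT-Veh mice. The difference over both genotypes was -0.00 ± 0.04, with a 95% interval of -0.10 to 0.09. The grafted mice held both the highest and the lowest values of Mfsd2a.

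That spread of Mfsd2a ran with litter and with labelled sex, which coincide in the grafted mice of litters 4 and 6. The 5 grafted mice of litter 6 measured 8.33 to 8.59 and the 4 of litter 4 measured 8.0 to 8.28, so the litters did not overlap within the NSC mice, and without mouse 59 2.03% of all genes were higher in litter 6 with no overlap. Rgs5 went the same way, with 6.43 to 7.0 in litter 6 and 5.87 to 6.79 in litter 4, which overlapped. In a limma fit of these litters with genotype in the design, without mouse 59, litter 6 was higher than litter 4 by 0.23 ± 0.07 for Mfsd2a (unadjusted p = 0.00954) and by 0.53 ± 0.19 for Rgs5 (unadjusted p = 0.0209), each with an adjusted p of 0.681, and 0 of 22180 genes were called (0%), while 7.14% had an unadjusted p under 0.05. The other 8 members differed by between -0.10 and 0.11. Among Veh mice, litter 5 differed from litter 1 by -0.05 ± 0.07 for Mfsd2a and by 0.07 ± 0.18 for Rgs5 (4 mice in each litter). The grafted mice of litter 6 are labelled male and those of litter 4 female, so litter and labelled sex cannot be told apart here, and WT-NSC mouse 54 of litter 6 is one of those whose sex genes differ from the label. The comparison of litters 6 and 4 was made after the values had been seen.

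**Figure D2:**
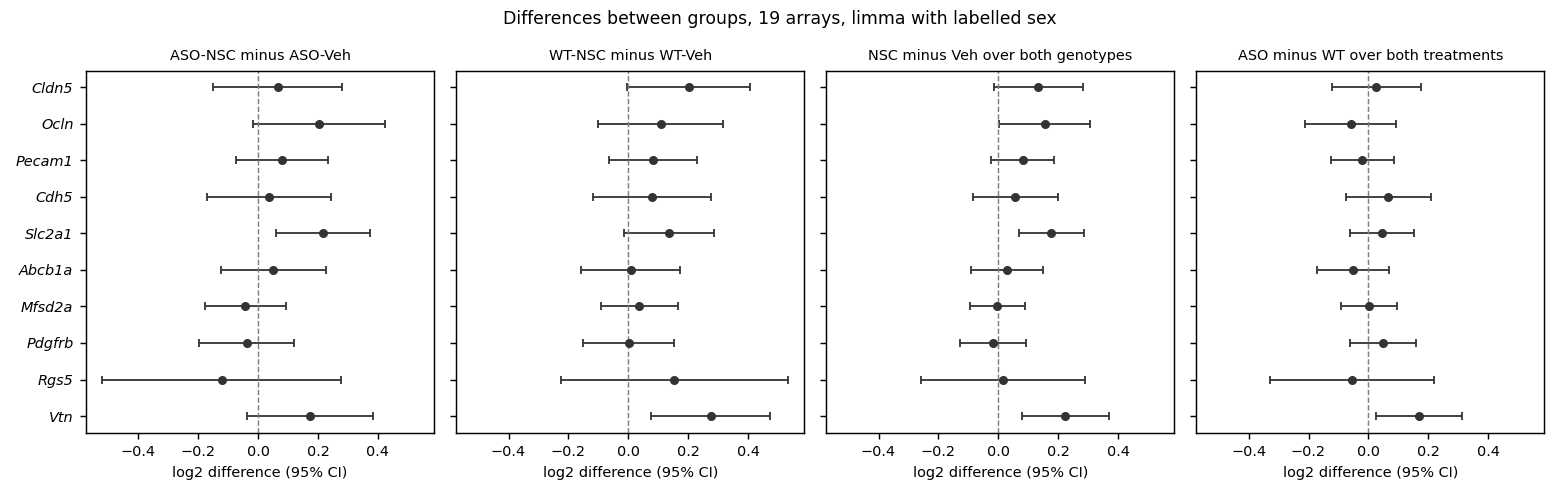
Log2 differences of the 10 members with their 95% intervals (horizontal axes), from limma on 19 arrays with the labelled sex in the design, in 4 comparisons. Intervals that lie above 0 are those of Slc2a1 in ASO mice, Vtn in WT mice, Slc2a1, Ocln and Vtn over both genotypes, and Vtn in ASO against WT mice, and none of these passed adjustment over all genes.

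Of the pericyte genes, Pdgfrb (17351027) encodes the receptor by which pericytes are recruited to vessels, and it varied little. It was at 8.69, 8.65, 8.74, 8.80 and 8.58 in ASO-NSC mice, against 8.56, 8.82, 8.69, 8.64 and 8.83 in ASO-Veh mice. In WT-NSC mice it was at 8.63, 8.72, 8.70, 8.73 and 8.43, against 8.80, 8.79, 8.67, 8.53 and 8.51 in WT-Veh mice. The ASO-NSC values lay within the range of the ASO-Veh values, and the WT groups overlapped in part. The difference over both genotypes was -0.02 ± 0.05, with a 95% interval of -0.13 to 0.09 and an adjusted p of 0.869 by limma.

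Rgs5 (17229451) encodes a regulator of G-protein signalling that marks pericytes. Its levels were 6.43, 7.0, 6.75, 5.87 and 6.25 in ASO-NSC mice, against 6.17, 6.42, 6.62, 6.37 and 6.83 in ASO-Veh mice. They were 6.28, 6.66, 6.98, 6.79 and 6.05 in WT-NSC mice, against 6.47, 6.67, 6.34, 6.05 and 6.75 in WT-Veh mice. The kept cluster of Rgs5 had the widest spread of the members (interquartile range 0.478, against a median of 0.173 over all genes). Of its 2 clusters the rule kept the one with the wider spread, so that width is partly set by the choice. Group SDs ran from 0.25 to 0.47 for the kept cluster and from 0.05 to 0.17 for the second. Grafted mice held the highest and the lowest values of the kept cluster.

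Differences in Rgs5 were -0.12 ± 0.19 in ASO mice and 0.15 ± 0.18 in WT mice, with adjusted p of 0.86 and 0.734 by limma. The second Rgs5 cluster (17219139), at 9.10 to 9.59, differed by 0.09 ± 0.08 in ASO mice and 0.02 ± 0.08 in WT mice. In ASO mice the first cluster's value was smaller than its error, so no direction is read from it. The 2 clusters of Rgs5 ordered the mice alike, with r = 0.86 (permutation p = 4e-05), rho = 0.85 (permutation p = 8e-05), and r = 0.84 without the 2 mice farthest from the median.

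**Figure D3:**
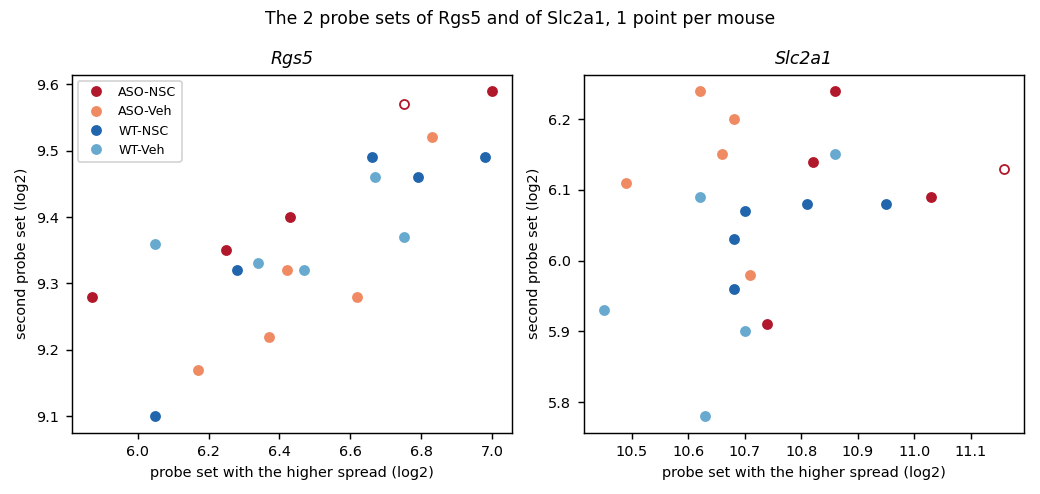
Log2 intensity of the second cluster (vertical axes) against the cluster with the higher spread (horizontal axes) for Rgs5 and Slc2a1, 1 point per mouse, with the open circle for ASO-NSC mouse 59. The clusters of Rgs5 rank the mice alike and those of Slc2a1 do not.

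Vtn (17253656) encodes vitronectin, an extracellular matrix glycoprotein that is made by brain pericytes and, in large amounts, by the liver. It measured 10.05, 10.23, 10.33, 10.12 and 10.05 in ASO-NSC mice, against 9.73, 9.89, 9.98, 10.04 and 10.03 in ASO-Veh mice. Every ASO-NSC mouse lay above every ASO-Veh mouse, by as little as the gap between 10.05 and 10.04, where 3.01% of all genes were higher without overlap. In WT-NSC mice it measured 9.64, 9.98, 10.08, 10.28 and 9.97, against 9.70, 9.91, 9.73, 9.56 and 9.74 in WT-Veh mice, and WT-NSC mouse 53, the grafted mouse of litter 3, lay below 4 of the 5 WT-Veh mice.

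Vtn differed by 0.17 ± 0.10 between ASO-NSC and ASO-Veh mice (adjusted p = 0.608) and by 0.28 ± 0.10 between WT-NSC and WT-Veh mice (1.21-fold, unadjusted p = 0.00985, adjusted p = 0.222), and by 0.22 ± 0.07 over both genotypes (95% interval 0.08 to 0.37, adjusted p = 0.104) by limma. Without WT-NSC mouse 53 the last was 0.26 and passed the threshold (adjusted p = 0.0423). In the fit that blocked on litter it turned to -0.21 ± 0.19, an estimate that rests on litter 3, where WT-NSC mouse 53 measured 9.64 and ASO-Veh mice 46 and 47 measured 9.98 and 10.04. In that litter the treatments also differ in genotype. Treatment and litter cannot be told apart in the other litters.

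Group means of Vtn were 10.11 ± 0.08 in ASO-NSC mice, 9.99 ± 0.23 in WT-NSC mice, 9.93 ± 0.13 in ASO-Veh mice and 9.73 ± 0.12 in WT-Veh mice (SD). ASO-NSC mice exceeded WT-Veh mice by 0.39 ± 0.10 (1.31-fold, unadjusted p = 0.000998, adjusted p = 0.162 by limma) with no overlap, and 2.25% of all genes were higher with no overlap. In that comparison 0 of 10 members were called (0.0135% of all genes), Vtn and Slc2a1 had an unadjusted p under 0.05 (13.7% of all genes), and Slc2a1 differed by 0.22 ± 0.08 (adjusted p = 0.249). Neighbours in the order of the Vtn means overlapped, and ASO-NSC against WT-NSC mice gave 0.12 ± 0.10 with an adjusted p of 1.

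The Vtn promoter, from RefSeq on GRCm38.p6, chr11:78498870-78499169, plus strand, held in capitals a stretch that reads as TATAAA on both strands with overlap (from -137 relative to the annotated start), and, at 4 after the start and on the other strand, GAAA, any 2 bases and GAAA again, the letters of an interferon-stimulated response element:
Vtn: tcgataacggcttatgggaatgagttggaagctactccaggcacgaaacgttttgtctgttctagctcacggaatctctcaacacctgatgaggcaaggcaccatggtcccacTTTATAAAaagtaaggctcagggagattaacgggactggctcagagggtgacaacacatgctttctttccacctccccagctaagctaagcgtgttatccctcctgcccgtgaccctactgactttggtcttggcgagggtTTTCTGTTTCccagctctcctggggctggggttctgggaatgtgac
The response element letters were found on either strand in 3.44% of all promoters and in no other of the 7 members whose promoter was in the table. These 7 members had 8 promoters in the table, while the percentages are per promoter. The other letters searched in them were 2 cores of ETS factors, CCGGAA (in Ocln, 14.9% of all promoters) and CAGGAA (in Mfsd2a and Rgs5, 30.6%). Also searched were CTTTGA of TCF/LEF factors (in Abcb1a, Mfsd2a and Rgs5, 16% of all promoters) and ACAATG of SOX factors (in none, 12.6% of all promoters). GGGCGG was in Cldn5, Ocln and Slc2a1 and TATAAA in Slc2a1 and Vtn. Promoters of Pecam1, Cdh5 and Pdgfrb were not used here.

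A second question was whether α-synuclein over-expression changed the members. In ASO-Veh against WT-Veh mice, 0 members were called (0% of all genes) and 1, Vtn, had an unadjusted p under 0.05 (4.81% of all genes), with a difference of 0.22 ± 0.10 and an adjusted p of 0.998. In ASO-NSC against WT-NSC mice, 0 were called (0.00451% of all genes) and 0 had an unadjusted p under 0.05 (3.05% of all genes). Over both treatments, 0 members were called (0.00902% of all genes) and Vtn alone had an unadjusted p under 0.05 (4.01% of all genes), being higher in ASO mice by 0.17 ± 0.07 (adjusted p = 0.996). The other 9 members differed between ASO and WT mice by between -0.06 and 0.07. The effect of the graft was then set against genotype. Its difference between ASO and WT mice was called for 0 members (0% of all genes) and had an unadjusted p under 0.05 for 0 members (3.64% of all genes), with the largest, that of Rgs5, at -0.28 ± 0.26.

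Lists of other genes of the vessel wall and its neighbours, chosen with earlier results known, gave the surroundings of the members. The share of all genes that rose after the graft over both genotypes, 0.951%, applies to each list that follows. Of 18 other tight and adherens junction genes, 14 were above 0 over both genotypes after the graft, with a median of 0.06, and none was called. F11r, the junctional adhesion molecule JAM-A, and Jam3 had the largest statistics (0.22 ± 0.06 and 0.19 ± 0.06, adjusted p = 0.0895 and 0.0927). Of 29 other endothelial identity genes, 24 were above 0, with a median of 0.04, and 1 rose, where 0.951% of all genes rose. This was Foxf2, a forkhead transcription factor needed in brain pericytes of the mouse and expressed in brain endothelium, at 0.17 ± 0.04 (adjusted p = 0.0486). Cd34 and Adgrf5 followed, at 0.17 ± 0.04 and 0.20 ± 0.05 (adjusted p = 0.0616 and 0.064).

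Foxf2 measured 6.41, 6.57, 6.31, 6.38 and 6.47 in ASO-NSC mice, against 6.10, 6.29, 6.20, 6.10 and 6.24 in ASO-Veh mice, and 6.30, 6.32, 6.34, 6.34 and 6.17 in WT-NSC mice, against 6.20, 6.27, 6.36, 6.12 and 6.22 in WT-Veh mice. The ASO groups lay apart, where 3.01% of all genes were higher without overlap, and the WT groups overlapped. The call of Foxf2 was lost in the fits of all 20 arrays (0.15, adjusted p = 0.0644), without a sex term (0.16, adjusted p = 0.0659) and blocked on litter (0.34, adjusted p = 0.759), and it was kept in 4 of 19 fits that left out 1 mouse each (adjusted p 0.0307 to 0.137), those without mouse 56 (ASO-NSC), 74 (WT-NSC), 64 or 67 (both WT-Veh).

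None of 20 other brain endothelial transporters and receptors was called, with 12 above 0 and a median of 0.05. Slc3a2, the heavy chain of the large neutral amino acid transporter, and Slc19a3, a thiamine transporter, led at 0.17 ± 0.05 and 0.18 ± 0.05 (adjusted p = 0.0821 and 0.0938). Of 19 other pericyte genes, 13 were above 0, with a median of 0.05, and 1 rose, namely P2ry14, a receptor for UDP-sugars that microglia and other brain cells also carry, at 0.27 ± 0.06 (adjusted p = 0.0484). Cd248, the pericyte and fibroblast protein endosialin, differed by -0.17 ± 0.06 (adjusted p = 0.17). None of 12 smooth muscle genes (median 0.02) or 14 basement membrane genes (median 0.01) was called.

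P2ry14 measured 6.42, 6.90, 6.50, 6.34 and 6.32 in ASO-NSC mice, against 5.86, 6.14, 6.08, 6.21 and 6.04 in ASO-Veh mice, and 6.34, 6.38, 6.31, 6.26 and 6.38 in WT-NSC mice, against 6.12, 6.28, 6.36, 6.14 and 6.27 in WT-Veh mice. Mouse 57 was the highest of all, and without it the difference was 0.20 with an adjusted p of 0.0904. The call of P2ry14 was kept in 5 of 19 fits that left out 1 mouse each (adjusted p 0.028 to 0.096), and lost without a sex term (0.26, adjusted p = 0.0588), without the 5 arrays whose sex genes differ from the label (0.28, adjusted p = 0.141) and in the fit blocked on litter (0.26, adjusted p = 0.969).

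**Figure D4:**
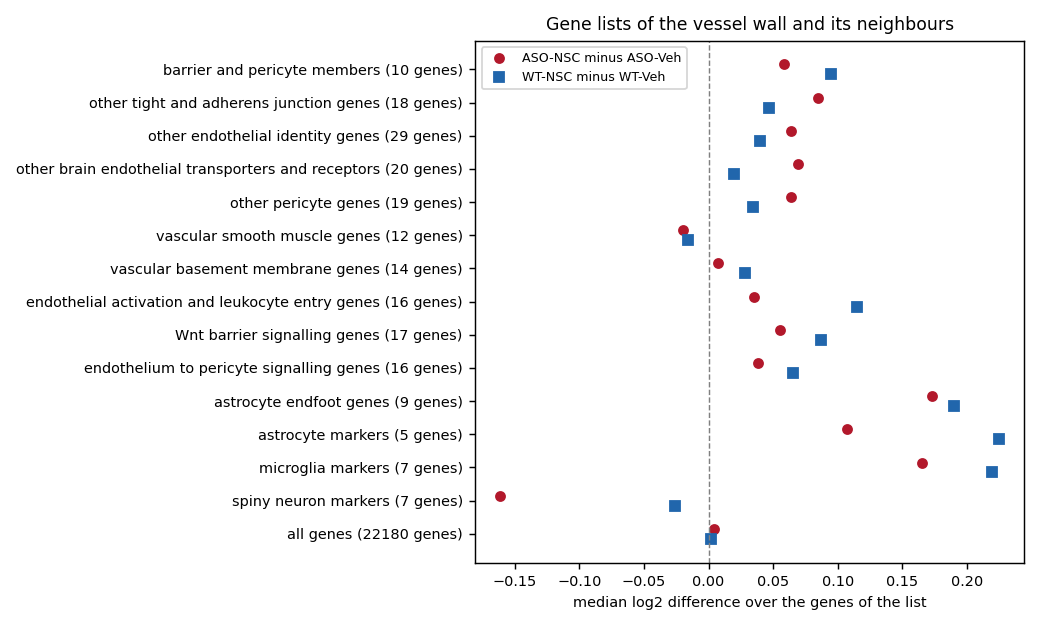
Median log2 difference (horizontal axis) after the graft in ASO mice (circles) and in WT mice (squares) over the genes of each list, with the number of genes measured. The members lie at 0.06 in ASO mice and 0.10 in WT mice, and the lists of astrocytes, their endfeet and microglia lie between 0.11 and 0.23.

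Of 16 genes of endothelial activation and leukocyte entry, 1 rose and 10 were above 0 (median 0.06). Vcam1, the adhesion molecule by which leukocytes hold to endothelium and which astrocytes also make, was higher by 0.34 ± 0.08 (adjusted p = 0.0359). None of 17 genes of Wnt barrier signalling was called (11 above 0, median 0.08), with Tspan12, a partner of the Norrin receptor, at 0.15 ± 0.04 (adjusted p = 0.091) and Tcf7l2 at 0.42 ± 0.13 (adjusted p = 0.113). None of 16 genes of endothelium to pericyte signalling was called (12 above 0, median 0.04). Angpt1, the Tie2 ligand, was at 0.44 ± 0.11 (adjusted p = 0.052) and Tgfbr2 at 0.16 ± 0.04 (adjusted p = 0.0658).

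Vcam1 measured 8.15, 8.37, 8.52, 8.06 and 8.28 in ASO-NSC mice, against 7.80, 7.86, 7.85, 7.96 and 7.92 in ASO-Veh mice, and 8.22, 8.32, 8.60, 8.22 and 8.25 in WT-NSC mice, against 7.74, 7.78, 8.37, 7.87 and 8.13 in WT-Veh mice. Every ASO-NSC mouse lay above every ASO-Veh mouse, where 3.01% of all genes were higher without overlap. Among WT mice the 2 groups overlapped through WT-Veh mouse 64. Its call was kept in 8 of 19 fits that left out 1 mouse each (adjusted p 0.00705 to 0.107) and lost without the 5 arrays whose sex genes differ from the label (0.27, adjusted p = 0.132) and in the fit blocked on litter (0.31, adjusted p = 0.951).

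Genes of other cell types were called as well. Aqp4, the water channel of the astrocyte endfeet, rose by 0.38 ± 0.07 over both genotypes (adjusted p = 0.00947), 1 of 9 endfoot genes called (7 above 0, median 0.18), and the astrocyte filament gene Gfap by 0.75 ± 0.11 (adjusted p = 0.00226), 1 of 5 astrocyte markers called. Aqp4 kept its call in 19 of 19 fits with a mouse left out and lost it without the 5 arrays (0.37, adjusted p = 0.07) and in the fit blocked on litter (0.24, adjusted p = 0.969). Of 7 microglia markers, 2 rose, with Csf1r at 0.27 ± 0.05 and Itgam at 0.29 ± 0.07 (adjusted p = 0.0135 and 0.0381), and both calls were lost without the 5 arrays (adjusted p = 0.104 and 0.138). The 7 spiny neuron markers all lay below 0 (median -0.11) and none was called. Of 11 interferon-induced genes, 9 rose, with a median of 1.21. In the fit blocked on litter, which rests on 1 NSC array, 1 of the 11 interferon-induced genes was called (median 1.78) and none of the astrocyte, endfoot and microglia genes, with Gfap at 0.43 ± 0.32, Csf1r at 0.16 ± 0.16 and Itgam at 0.47 ± 0.21 (adjusted p = 0.969, 0.976 and 0.887). The mean level of the 5 astrocyte markers ran from 9.96 to 10.33 in ASO-NSC mice, against 9.82 to 9.98 in ASO-Veh mice, and from 9.98 to 10.21 in WT-NSC mice, against 9.66 to 9.97 in WT-Veh mice. The part of these cell types in the values of Slc2a1, Vcam1 and P2ry14 was not tested.

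How the members moved together from mouse to mouse was described with values centred on the mean of each group, over the 20 mice. Both values of a point come from 1 array, and mice share litters. Of 45 pairs, 43 had an r above 0, with a median of 0.32, and 6 passed adjustment over the 45 pairs (within-group permutation, two-sided). Highest were Rgs5 with Mfsd2a (r = 0.70, permutation p = 0.00572, rho = 0.61, permutation p = 0.0177) and Abcb1a with Vtn (r = 0.69, permutation p = 0.00171, rho = 0.69, permutation p = 0.00323), at adjusted p of r of 0.0472 each. Without the 2 mice farthest from the median, r was 0.64 for the first pair and 0.66 for the second. The others were Abcb1a with Rgs5 (r = 0.64), Rgs5 with Vtn (0.63), Cdh5 with Slc2a1 (0.63) and Cdh5 with Vtn (0.58), each at the same adjusted p.

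Only 1 of these pairs, Abcb1a with Vtn, passed without mouse 59 (adjusted p = 0.0378). With mouse 59 kept, none passed once labelled sex was removed along with the group means, so the number of pairs depended on those choices. In a separate setting, with mouse 59 kept and group and litter means removed but not sex, r was 0.49 for Rgs5 with Mfsd2a. For Abcb1a with Vtn it was 0.73. The median r with the 9 other members was lowest for Pecam1 and Pdgfrb (0.21 each), Ocln (0.24) and Cldn5 (0.27). It lay between 0.30 and 0.46 for the rest. The r of Cldn5 ran from -0.18 with Slc2a1 to 0.46 with Rgs5. By rho, 4 pairs passed adjustment.

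**Figure D5:**
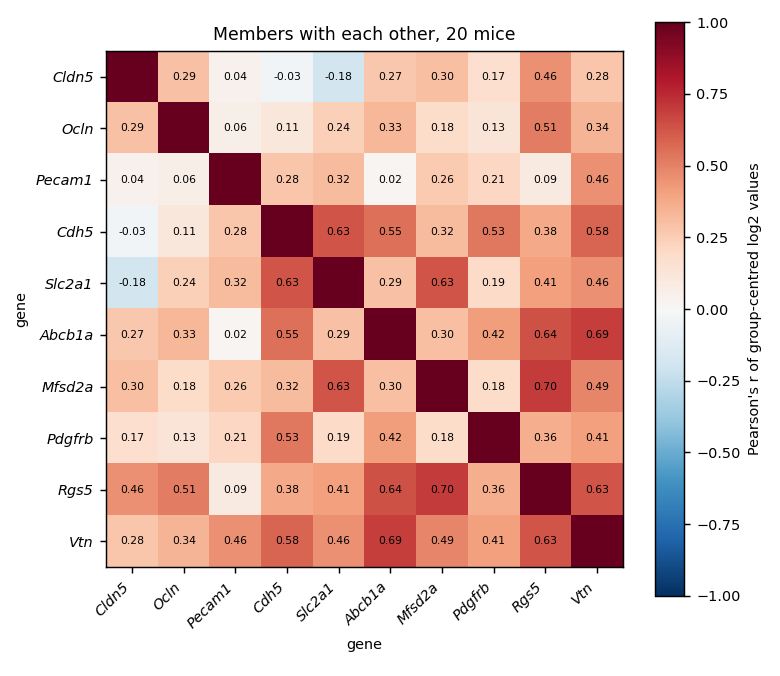
Pearson's r (colour and number in each cell) between the group-centred log2 values of each pair of members (both axes) over 20 mice. Rgs5, Vtn, Abcb1a and Cdh5 share the higher values, up to 0.70 for Rgs5 with Mfsd2a, and Pecam1, Pdgfrb, Ocln and Cldn5 have the lowest medians.

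Set against the 29 other endothelial identity genes, the median r was 0.39 for Cdh5 (28 of 29 above 0), 0.37 for Slc2a1, 0.34 for Abcb1a, 0.33 for Rgs5, 0.31 for Pdgfrb, 0.30 for Mfsd2a and 0.29 for Vtn. It was 0.06 for Cldn5, 0.05 for Pecam1 and -0.02 for Ocln, where the median over all genes was between 0.01 and 0.03 for each member. Markers of other cell types gave values as high or higher for several members, or values below 0. The median r with the 7 spiny neuron markers was -0.51 for Mfsd2a, -0.46 for Slc2a1, -0.45 for Pecam1 and -0.33 for Ocln and Vtn. For each of these members 0 of 7 were above 0. It lay between -0.17 and 0.05 for the other members. The median r with the 5 astrocyte markers was 0.58 for Ocln, 0.51 for Mfsd2a and 0.46 for Rgs5, and that with the 5 oligodendrocyte markers was 0.58 for Mfsd2a, 0.53 for Rgs5 and 0.47 for Slc2a1. With the 6 choroid plexus markers it was 0.51 for Ocln and 0.47 for Slc2a1. These 6 markers had a median difference of 0.235 after the graft over both genotypes (5 of 6 above 0, none called). Their mean level ran from 7.08 to 8.40 in ASO-NSC mice, against 7.09 to 7.97 in ASO-Veh mice. It ran from 7.31 to 8.36 in WT-NSC mice, against 6.83 to 8.59 in WT-Veh mice. Among these markers, Ttr ran from 7.99 to 12.69 in ASO-NSC mice (median 12.50), against 7.82 to 11.89 in ASO-Veh mice (median 8.35). In WT-NSC mice Ttr ran from 9.34 to 12.69 (median 12.27), against 7.74 to 12.78 in WT-Veh mice (median 8.24). The part of choroid plexus in the values of Ocln and Slc2a1 was not tested. Vtn had a median r of 0.64 with the 8 fibroblast and meningeal markers (8 of 8 above 0) and 0.21 with the 19 other pericyte genes. With the same 8 markers it was 0.51 for Ocln, 0.43 for Slc2a1, 0.42 for Rgs5, 0.37 for Cdh5 and 0.35 for Abcb1a and Pecam1. For the other members it lay between 0.09 and 0.27. Those fibroblast and meningeal markers had a median difference of 0.23 in ASO against WT mice (7 of 8 above 0, none called) and of -0.00 after the graft over both genotypes. Their mean level ran from 6.74 to 7.14 in ASO-NSC mice, 6.13 to 7.01 in WT-NSC mice, 6.50 to 6.99 in ASO-Veh mice and 6.43 to 6.81 in WT-Veh mice. Their part in the values of Vtn and the other members was not tested.

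The genes most like each member, the 5 with the highest r among all genes, were mostly outside the lists. For Slc2a1 the first was Slc7a5 (r = 0.84), the light chain of the large neutral amino acid transporter of the same endothelium, before App (0.83). For Cdh5 it was Fn1, fibronectin (0.86), and for Mfsd2a they were Fitm2 (0.90), a lipid droplet protein, and Wnt7b (0.83), a ligand of the barrier Wnt pathway. Vtn was followed by Shisa4 (0.91), Slc6a20a (0.89), Tekt5 (0.89), Slc22a6 (0.86) and Cops7a (0.85). The first was Rhou (0.88) for Rgs5, Clec16a (0.86) for Pdgfrb, Mob3b (0.87) for Ocln, Yeats4 (0.83) for Cldn5, Psmg1 (0.82) for Pecam1 and Daglb (0.83) for Abcb1a. These values describe the arrays and were chosen as the highest of 22180 genes, so no test was made of them.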

How the data were processed

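The deposited values are log2 intensities, 1 per transcript cluster and mouse, for which the authors ran RMA from oligo (background correction, normalization across arrays, summary of probes). The table held 41345 clusters, 23521 with 1 gene symbol, 1820 with several (not used here) and 16004 with none. The 23521 gave 22180 genes, and for 1082 with several clusters that of the widest interquartile range was taken. Groups came from the sample titles, and each mouse was a replicate. There is no read depth, and the precision is set by how many mice each group has.

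Comparisons were fitted in R 4.3.3 with limma 3.58.1 on 19 arrays, with a term for each group and the labelled sex and 18.20 combined degrees of freedom, two-sided, with adjustment by Benjamini-Hochberg over all genes. The correlation within litters was -0.0089. The code was tested on simulated data before use. Correlations used group-centred values of 20 arrays and 100000 permutations within groups, in Python 3.11.15 with numpy 2.4.6. Named were all members, the 5 genes most like each member, called genes of each vessel list with 2 more of the largest statistic, defining markers of cell lists and fixed promoter motifs. The members, lists, rules and motifs were chosen with earlier results of these data known. Promoters came from a RefSeq table on GRCm38.p6 with 7 of 10 members. The alternatives tried were a fit of all 20 arrays, a fit without the sex term or with sex read from the sex genes, omission of the 5 arrays in which those genes differ from the label, a term for RNA integrity, blocking on litter (fixed, then random), fits of just the groups in a comparison, a prior that was trended and robust, averaging of clusters, a filter on medians under 5, centring of arrays and leaving out each mouse.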

Additional observations from a re-analysis of the deposited data

Results flagged for a closer look

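Of 40 groups of 5 mice (10 members in 4 groups), 2 held a mouse farther from the rest than Dixon's critical ratio of 0.71 allows, and chance flags about 1 in 20 groups. Pecam1 was at 7.98 in WT-NSC mouse 70, where the next WT-NSC mouse was at 7.71. Mfsd2a was at 8.36 in WT-Veh mouse 62, where the next WT-Veh mouse was at 8.23.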

How the results depend on the processing

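No paired analysis was possible because no mouse number is shared between groups. Litters 1, 4, 5 and 6 hold both genotypes, and with litter as a fixed block no member was called between ASO and WT mice (Vtn 0.11 ± 0.07 over both treatments). A sign change of a difference smaller than its standard error was not counted. The counts of differences above 0 do include such differences. Members called stayed at 0 in all comparisons and alternatives, except over both genotypes, where it was 1 with centred arrays (Slc2a1, 0.21) and ranged from 0 to 1 with mice left out (Vtn, 0.26, without WT-NSC mouse 53). With litter as a fixed block, Vtn turned to -0.29 in ASO mice, -0.14 in WT mice, -0.10 in ASO-NSC against WT-Veh mice and -0.21 over both genotypes, and Ocln to 0.08 in ASO-Veh against WT-Veh mice. The cause was not tested.

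Counts over all genes moved more. NSC against Veh mice over both genotypes gave 256 calls (211 higher, 45 lower), but 480 with all 20 arrays, 393 with sex from the sex genes, 99 without the 5 arrays, 2 with litter fixed, 395 with the filter, 521 with centred arrays (487 higher, 34 lower) and 97 to 1004 with a mouse left out. WT-NSC against WT-Veh mice gave 96, but 2 without the 5 arrays, 2 with litter fixed, 5 with only the groups compared and 4 to 277 with a mouse left out. ASO-NSC against ASO-Veh mice gave 2, but 1 with all 20 arrays, with no sex term and with the trended prior, 4 with sex from the sex genes, 0 without the 5 arrays, with litter fixed and with only the groups compared, and 0 to 1 with a mouse left out. ASO-NSC against WT-Veh mice gave 3, but 18 with all 20 arrays, 11 with RNA integrity, 5 with the filter, 0 without the 5 arrays or with litter fixed and 0 to 3 with a mouse left out. ASO-NSC against WT-NSC mice gave 1, but 0 without the 5 arrays or with only the groups compared and 0 to 1 with a mouse left out. ASO-Veh against WT-Veh mice gave 0, but 1 with the trended prior. ASO against WT mice gave 2, but 0 without the 5 arrays and 1 with litter fixed. Of pairs of members, 6 passed, but 1 in 19 arrays without ASO-NSC mouse 59 and 0 with group means and labelled sex removed.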
